A study of Homo sapiens with 132 samples.

Results

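The genes around ERBB2 on chromosome arm 17q12 were followed by RNA sequencing in 4 gastric cancer cell lines. The 10 genes MED1, CDK12, PPP1R1B, STARD3, TCAP, PGAP3, MIEN1, GRB7, GSDMB and ORMDL3 were taken by their symbols and their position beside ERBB2 from the 65217 gene identifiers of each count file, and all 10 were found. ERBB2 itself, the gene of the receptor that trastuzumab binds, is given beside them as the reference gene of the locus. All 4 lines, MKN1, Hs746T, MKN7 and NCI-N87, received trastuzumab (5 µg/ml), the EGFR and ERBB2 kinase inhibitor afatinib (0.5 µM), the combination of these or no agent. MKN1 and Hs746T also received EGF (5 ng/ml), the EGFR antibody cetuximab (1 µg/ml) and both together. Cells were harvested after 4 h or 24 h, which gave 44 conditions with 3 replicates each. All of them are established lines, so that the 6 untreated libraries of a line show the spread between libraries of 1 tumour line and not between tumours. The control of afatinib was untreated cells, not cells given its solvent DMSO. Hs746T cells were grown in DMEM and the other lines in RPMI, so that line and medium cannot be told apart.

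In part of gastric and breast cancers the stretch of chromosome 17 that holds ERBB2 is present in extra copies, and the genes beside ERBB2 are then often copied with it. The shortest commonly amplified stretch runs from about STARD3 to GRB7, while MED1, CDK12, GSDMB and ORMDL3 lie nearer its edges and are gained or spared from tumour to tumour. The genes share no pathway: MED1 and CDK12 act in transcription, PPP1R1B and GRB7 in signalling, STARD3, PGAP3 and ORMDL3 in the handling of lipids and lipid anchors, TCAP in the muscle sarcomere, MIEN1 at the inner cell membrane and GSDMB in cell death.

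On chromosome 17 (GRCh38, GENCODE 29) the members were placed by the distance of their start site from that of ERBB2, negative before it and positive behind it in the direction in which ERBB2 is read. MED1 lies at -236.6 kb, CDK12 at -226.4, PPP1R1B at -61.2, STARD3 at -50.8 and TCAP at -23.7 kb. Behind the ERBB2 start follow PGAP3 at 8.9 kb, MIEN1 at 42.9, GRB7 at 50013 bases, GSDMB at 231.9 and ORMDL3 at 239.7 kb. MED1 (ENSG00000125686) spans 39404285 to 39451286 on the minus strand, CDK12 (ENSG00000167258) spans 39461511 to 39564907 on the plus strand and PPP1R1B (ENSG00000131771) spans 39626740 to 39636626 on the plus strand. STARD3 (ENSG00000131748) spans 39637065 to 39663484 on the plus strand, TCAP (ENSG00000173991) spans 39664187 to 39666555 on the plus strand and PGAP3 (ENSG00000161395) spans 39671122 to 39696797 on the minus strand. ERBB2 (ENSG00000141736) spans 39687914 to 39730426 on the plus strand and MIEN1 (ENSG00000141741) spans 39728496 to 39730787 on the minus strand. GRB7 (ENSG00000141738) spans 39737927 to 39747291 on the plus strand, GSDMB (ENSG00000073605) spans 39904595 to 39919854 on the minus strand and ORMDL3 (ENSG00000172057) spans 39921041 to 39927601 on the minus strand. RefSeq promoter windows of 300 bases (250 before to 50 after the start site, build GRCh38.p14) were at hand for 6 of the 10 members, and those of PPP1R1B, TCAP, GRB7 and GSDMB were not analysed here. The 8.9 kb of PGAP3 was taken from its outermost end in GENCODE. RefSeq instead places its start site (39688057) in front of that of ERBB2 (39688094). By the RefSeq start sites, PGAP3 and ERBB2 are read away from each other from start sites 37 bases apart, and their windows share 136 bases. These windows are shown because both genes rose under afatinib at 24 h in NCI-N87 and in MKN7 cells, and the capitals mark the shared stretch, read on opposite strands.
ERBB2, chr17:39687844-39688143, plus strand: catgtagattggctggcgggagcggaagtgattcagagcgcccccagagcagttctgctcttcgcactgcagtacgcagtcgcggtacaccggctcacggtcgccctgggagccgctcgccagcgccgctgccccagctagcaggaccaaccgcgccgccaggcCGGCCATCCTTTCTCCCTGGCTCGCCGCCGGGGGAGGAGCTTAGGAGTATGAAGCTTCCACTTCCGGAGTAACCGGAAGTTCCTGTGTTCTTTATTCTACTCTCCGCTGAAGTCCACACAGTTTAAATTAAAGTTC
PGAP3, chr17:39688008-39688307, minus strand: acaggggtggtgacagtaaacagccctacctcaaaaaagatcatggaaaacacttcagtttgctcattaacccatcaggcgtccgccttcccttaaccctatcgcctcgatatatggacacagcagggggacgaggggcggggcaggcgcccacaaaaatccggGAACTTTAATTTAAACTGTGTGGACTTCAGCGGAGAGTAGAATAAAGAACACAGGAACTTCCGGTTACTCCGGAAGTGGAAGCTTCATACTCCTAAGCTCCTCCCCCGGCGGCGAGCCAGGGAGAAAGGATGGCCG
The letters CCGGAAGT, bound by ETS factors, occur at 2 places (both strands searched) within the shared stretch, and 4.14% of the 35116 windows in the table hold them at least once. MED1 and CDK12, which both fell under afatinib at 24 h in these lines, are also read away from each other. Their windows do not overlap and lie at the front end of the member region. The capitals below mark every match to TCTCGCGA on either strand, letters that were chosen after the sequences had been read.
MED1, chr17:39451214-39451513, minus strand: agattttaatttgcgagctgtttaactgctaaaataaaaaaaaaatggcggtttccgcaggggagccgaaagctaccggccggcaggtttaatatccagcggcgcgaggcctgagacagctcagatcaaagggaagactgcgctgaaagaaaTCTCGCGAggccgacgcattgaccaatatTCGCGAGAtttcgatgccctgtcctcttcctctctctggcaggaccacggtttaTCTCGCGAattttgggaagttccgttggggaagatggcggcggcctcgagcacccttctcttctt
CDK12, chr17:39461236-39461535, plus strand: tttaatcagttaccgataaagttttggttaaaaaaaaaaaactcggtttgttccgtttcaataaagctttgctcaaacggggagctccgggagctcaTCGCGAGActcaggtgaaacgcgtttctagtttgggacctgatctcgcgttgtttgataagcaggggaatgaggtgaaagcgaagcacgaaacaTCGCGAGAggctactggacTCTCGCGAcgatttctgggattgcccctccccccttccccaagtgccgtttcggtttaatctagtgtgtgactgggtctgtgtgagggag
Each of these windows holds 3 matches. At least 1 match is found in 1.15% of all windows and 3 or more in 0.085% (30 windows). The 2 other motifs searched on both strands were GCCNNNGGC (AP-2 factors), found 1 time in STARD3 and in 23.2% of all windows, and CACGTG (E-box), found 1 time in MIEN1 and in 7.26% of all windows. A match is a description of letters and no evidence of binding.

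The libraries held 25832557 to 69434151 counts on genes. Levels are given as CPM, counts scaled by TMM to a common library total. A count of 3, the floor used here, stood for 0.0432 CPM in the deepest and 0.116 CPM in the shallowest library, which covers counting error only. Epithelial CDH1 lay at 197 to 344 CPM in NCI-N87 and 184 to 292 in MKN7, but at 0.747 to 6.04 in MKN1 and 0.382 to 6.01 in Hs746T cells, where mesenchymal VIM reached 158 to 1218 and 1334 to 2047 CPM. The other epithelial markers did not all share this order. The median of KRT8 was 11067 CPM in MKN1 and 3083 in MKN7, and that of CLDN4 was 308 in Hs746T and 159 in MKN7. The 6 epithelial markers summed to 9945 to 25917 CPM in NCI-N87, 4471 to 7289 in MKN7, 12616 to 23787 in MKN1 and 717 to 1042 in Hs746T, and the 4 mesenchymal markers to 88.3 to 375, 373 to 707, 595 to 2541 and 3077 to 5507. The lines therefore differed in more than the 17q12 genes, and the part of this in the differences below was not tested. The counter and its strand setting are not given in the sources used here. MIEN1 shares 571 exon bases (24.9% of its exons) with ERBB2 on the opposite strand, and PGAP3 shares 194 (5.3%). ERBB2 took 25257063 counts over all libraries, PGAP3 1009381 and MIEN1 only 21838, so that the values of MIEN1 and, less so, of PGAP3 are uncertain.

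In untreated cells, most of the neighbours of ERBB2 were far higher in NCI-N87 and MKN7 than in MKN1 and Hs746T cells. In NCI-N87 against MKN1 cells 10 of 10 members passed the test as higher (edgeR's quasi-likelihood test, Benjamini-Hochberg adjusted p below 0.05), where 38% of all 22832 genes tested did. Their median log2FC was 3.80 when the smaller of the differences to MKN1 and Hs746T was taken for each member, against -0.51 for all genes, and 3.04 against -0.54 in MKN7 cells. In MKN7 against MKN1 cells 8 were higher (35.5% of all genes) and GSDMB and ORMDL3, at the far end of the region, were lower. Against Hs746T cells 10 members were higher in NCI-N87 (39.3%) and 9 in MKN7 (37.4%). The members that passed and lay more than 2-fold above both MKN1 and Hs746T were 9 in NCI-N87, where 12.5% of all genes did so, and 7 in MKN7, where 9.48% did. DNA copies were not measured here, and extra gene copies and more RNA per copy cannot be told apart, nor can more cells that express a gene and more RNA per cell.

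Among the transcription genes, CDK12 encodes the kinase that with cyclin K phosphorylates RNA polymerase II during elongation. The lowest, median and highest of 6 untreated libraries were 1683, 1803 and 2007 CPM in NCI-N87 and 1120, 1351 and 1573 in MKN7. They were 126, 166 and 200 CPM in MKN1 and 157, 164 and 174 in Hs746T cells. The libraries of the first pair of lines lay above all those of the second pair, while MKN1 and Hs746T overlapped (log2FC -0.01 ± 0.07 SE, edgeR's quasi-likelihood test, adjusted p = 0.906). MED1, the Mediator subunit that contacts nuclear receptors, showed the same split with 880, 941 and 1001 CPM in NCI-N87, 644, 719 and 789 in MKN7, 74.4, 86.1 and 97.2 in MKN1, and 56.8, 89.3 and 96.4 in Hs746T. The log2FC of MED1 between NCI-N87 and MKN1 was 3.44 ± 0.13, and that between MKN7 and MKN1 was 3.05 ± 0.13. For CDK12 it was 3.46 ± 0.07 and 3.02 ± 0.07, so that these neighbours of each other differed nearly alike.

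PPP1R1B, also called DARPP-32, encodes an inhibitor of protein phosphatase 1 best known from neurons. It was close to absent in MKN1 (0 to 0.294 CPM, 0 to 12 counts) and Hs746T cells (0.0187 to 0.148 CPM), and lay at 17.2, 24.7 and 37.2 CPM in NCI-N87 and 22.3, 28.2 and 37.6 in MKN7. These are among the larger differences of all genes: by the smaller difference to MKN1 and Hs746T, PPP1R1B ranked 46 of 22832 genes in NCI-N87 (log2FC 7.61) and 27 in MKN7 (7.81). The fitted values rest on few counts in MKN1 and Hs746T. PPP1R1B was the single member with no difference between NCI-N87 and MKN7 that passed the test (log2FC -0.20 ± 0.19, adjusted p = 0.356). Its libraries overlapped.

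GRB7, an adaptor that binds phosphorylated ERBB2 through its SH2 domain, reached 823, 1300 and 1814 CPM in NCI-N87 and 159, 175 and 278 in MKN7. In MKN1 cells it lay at 1.66, 10.2 and 12.5 CPM and in Hs746T cells at 0.564, 1.48 and 3.04. Each line of this order lay wholly above the next except MKN1 and Hs746T, which overlapped although their difference passed the test (Hs746T minus MKN1 log2FC -2.33 ± 0.38, adjusted p = 3.32e-08). The log2FC of NCI-N87 over Hs746T was 9.68 ± 0.46 and was higher than that of every other member. GRB7 ranked 60 of 22832 genes in NCI-N87 and 216 in MKN7, beside 107 and 195 for ERBB2.

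The lipid genes fell into 2 patterns. STARD3, which moves cholesterol at late endosomes, lay at 1223, 1347 and 1551 CPM in NCI-N87, 595, 679 and 728 in MKN7, 67.8, 68.2 and 72.1 in MKN1 and 60.7, 74.2 and 80.7 in Hs746T. PGAP3, which remodels the lipid of GPI anchors, lay at 340, 382 and 414 CPM in NCI-N87 and 208, 241 and 265 in MKN7. In MKN1 cells its level was 19 to 24.8 CPM and in Hs746T cells 4.23 to 6.42, so that the 4 lines did not overlap for PGAP3. ORMDL3, a brake on the serine palmitoyltransferase of sphingolipid synthesis, varied far less. Its level was 105, 124 and 134 CPM in NCI-N87, 51.2, 53.2 and 56.5 in MKN7, 63.5, 64.9 and 71.5 in MKN1 and 33.9, 41.9 and 51.1 in Hs746T. MKN7 cells thus held less ORMDL3 than MKN1 cells (log2FC -0.30 ± 0.08, adjusted p = 0.000566). At 24 h alone this difference of ORMDL3 was -0.22 and did not pass the test, nor did its difference between MKN7 and Hs746T at 4 h alone (0.17).

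GSDMB, MIEN1, GRB7 and TCAP had the largest log2FC of the members between NCI-N87 and MKN7. TCAP caps titin in the muscle sarcomere and lay at 45, 53.7 and 67.2 CPM in NCI-N87, 6.74, 8.75 and 10.5 in MKN7, 4.73, 5.34 and 5.91 in MKN1 and 0.46, 0.537 and 0.882 in Hs746T. The summed level of 6 other striated muscle genes (ACTN2, MYH7, MYH6, TTN, DES and MYOD1) was at most 1.86 CPM in any library. MIEN1, a small protein anchored to the cell membrane and linked to migration, reached 6.88 to 13.5 CPM in NCI-N87, 1.06 to 2.32 in MKN7, 0.238 to 0.666 in MKN1 and 0.0767 to 0.292 in Hs746T. GSDMB, a pore-forming gasdermin, stood at 28.1, 43.6 and 52.8 CPM in NCI-N87 but at 3.24, 4.4 and 6.26 in MKN7. Its level in MKN1 cells was 9.96 to 13.2 CPM, above all MKN7 libraries. Between NCI-N87 and MKN7, where 9 members were higher (37.5% of all genes), the log2FC was 3.26 ± 0.14 for GSDMB, 2.70 ± 0.18 for MIEN1, 2.69 ± 0.33 for GRB7 and 2.67 ± 0.11 for TCAP. CDK12 and MED1 differed by 0.44 ± 0.07 and 0.39 ± 0.12, and MED1 (0.26) did not pass at 4 h alone. Between MKN7 and Hs746T the value of GSDMB was -0.24 (adjusted p = 0.112), which passed without replicate 2 (-0.49), at 4 h alone (-0.51) and with scaling by library size alone (-0.34). At 24 h alone it had the opposite sign (0.03, adjusted p = 0.9).

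**Figure D1:**
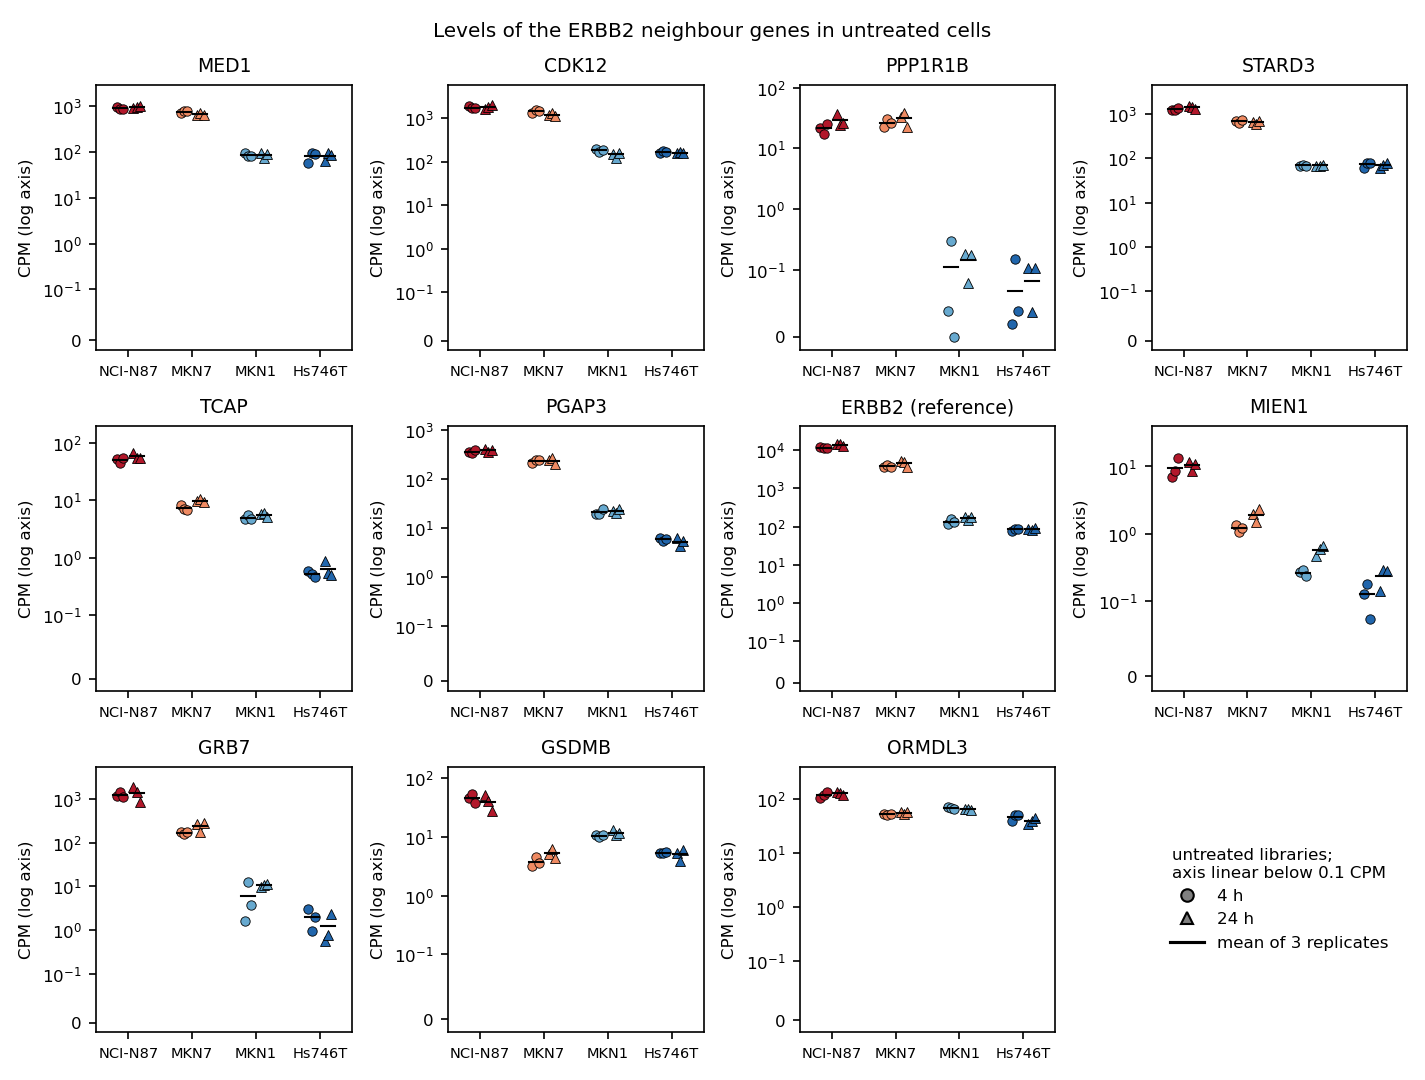
Level (CPM, log axis, linear below 0.1) of the 10 members and ERBB2 in each untreated library of the 4 cell lines, with circles for 4 h, triangles for 24 h and a line at the mean of 3 replicates. All NCI-N87 and MKN7 libraries lie above all MKN1 and Hs746T libraries for MED1, CDK12, PPP1R1B, STARD3, TCAP, PGAP3, MIEN1, GRB7 and ERBB2, but MKN7 does not for GSDMB and ORMDL3.

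Between the lines with low levels, 6 members were lower in Hs746T than in MKN1 cells (38.9% of all genes), namely TCAP, PGAP3, MIEN1, GRB7, GSDMB and ORMDL3, with a log2FC from -0.64 for ORMDL3 to -3.17 for TCAP. MED1, CDK12, PPP1R1B and STARD3 had values between -0.61 and 0.05 that did not pass. Of the 60 differences of a member between 2 lines, 54 passed the test, and all 54 also passed with the series of sample numbers (the labels run in 2 series) as a covariate and had the same sign within each series. In these comparisons 35.5% to 39.3% of all genes passed in the direction that most members took. These shares cover 1 direction only, while the 54 cover both, so that they cannot be set against each other. The share of all genes that passed in either direction is not given here.

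Levels per length of exon allow the genes to be set roughly against each other. The length is that of all annotated exons of a gene and not of the transcript in use. The places of MIEN1 and, less so, of PGAP3 are uncertain, since their exons overlap ERBB2. In NCI-N87 cells the medians in CPM per kb were 1207 for ERBB2, 361 for GRB7, 261 for STARD3, 141 for CDK12, 128 for MED1 and 104 for PGAP3. They were 33 for ORMDL3, 25.3 for TCAP, 7.39 for GSDMB, 5.43 for PPP1R1B and 4.25 for MIEN1. Neighbours in this order overlapped between GRB7 and STARD3, CDK12 and MED1, ORMDL3 and TCAP, GSDMB and PPP1R1B, and PPP1R1B and MIEN1. In MKN7 cells STARD3 (115 to 141) led the members and GRB7 (48.8) stood beside PGAP3 (65.7), with overlapping libraries. In MKN1 and Hs746T cells ORMDL3, STARD3, CDK12 and MED1, at 11.2 to 17.3 CPM per kb, stood beside ERBB2 (14.4 and 8.26), and PPP1R1B and MIEN1 were lowest. The 10 members together took 0.521 to 1.1% of all counts in NCI-N87 libraries and 0.031 to 0.0421% in Hs746T libraries. ERBB2 alone took 0.99 to 2.62% in NCI-N87 libraries.

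Along the chromosome, the stretch of higher levels took in most flanking genes in NCI-N87 cells and few in MKN7 cells. A list of 35 flanking genes was used, with start sites from -982.4 to 961.0 kb from that of ERBB2, of which 33 could be tested. In NCI-N87 cells 26 of the 33 passed and lay more than 2-fold above both MKN1 and Hs746T. These were 12 of 13 in front of the members, 13 of 17 behind them and 1 of 3 between them. In MKN7 cells this held for 7 of 33, with 2 of 3 between the members, 2 of 17 behind and 3 of 13 in front. The 3 in front were FBXL20 beside MED1 (log2FC over MKN1 2.45 ± 0.14), RPL19 (2.61 ± 0.20) and CACNB1 (4.48 ± 0.17). PNMT, between TCAP and PGAP3, was lower than in MKN1 cells in both NCI-N87 (log2FC -3.70 ± 0.26) and MKN7 (-5.07 ± 0.29). Over Hs746T its values were 2.70 and 1.33. Its medians were 0.899 CPM in NCI-N87, 0.474 in MKN7, 14.9 in MKN1 and 0.144 in Hs746T cells. IKZF3, a lymphoid transcription factor gene between GRB7 and GSDMB, lay at a median of 126 CPM in MKN7 against 2.39 in NCI-N87, 1.05 in MKN1 and 0.833 in Hs746T cells. The summed level of PTPRC, CD3E, MS4A1 and CD79A was at most 0.688 CPM in MKN7 libraries, where lymphocyte markers thus lay near 0.

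**Figure D2:**
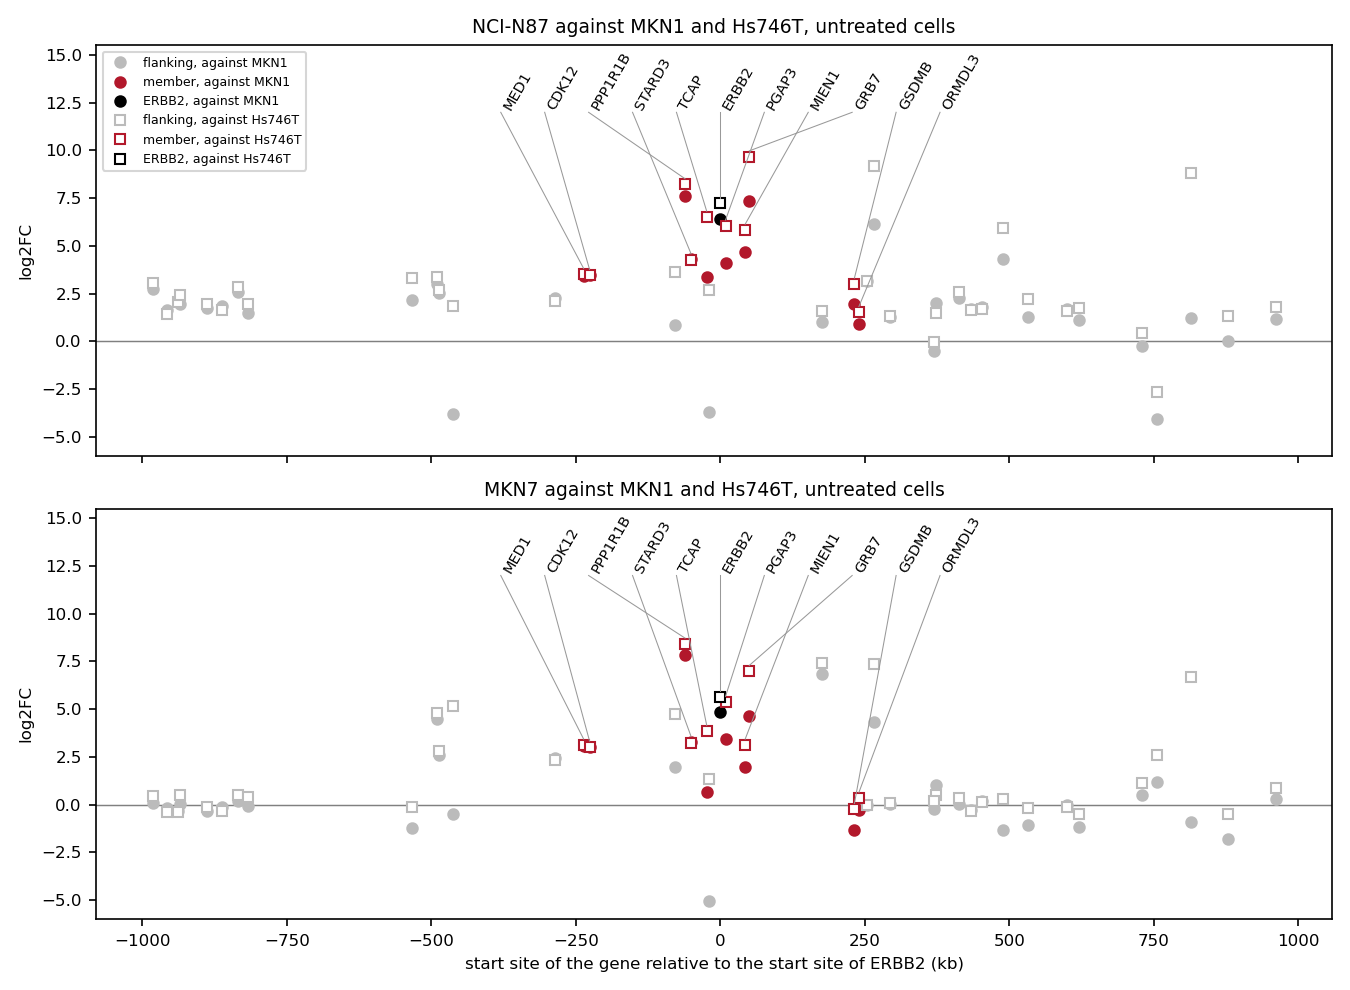
Difference (log2FC) of untreated NCI-N87 (top) and MKN7 cells (bottom) from MKN1 (filled circles) and Hs746T cells (open squares) for the members (red), ERBB2 (black) and the flanking genes (grey), against the distance of each start site from that of ERBB2 in kb. Among the members PPP1R1B and GRB7 have the highest values in both lines, and those of GSDMB and ORMDL3 in MKN7 lie between -1.33 and 0.34.

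After 24 h afatinib treatment, NCI-N87 cells changed 9 of the 10 members, and not in a common direction. PPP1R1B, PGAP3, MIEN1, GRB7, GSDMB and ORMDL3 rose and MED1, CDK12 and STARD3 fell. Of all genes tested in this line, 62.5% passed the test, 31.5% as higher and 31% as lower, so that the 9 members are to be read against a change in most genes. The median log2FC of the members was 0.57 and that of all genes 0.03. Scaled by library size alone, where the median of all genes moved to 0.29 and 42.2% of the genes were higher and 21.9% lower, 7 members were higher and 2 lower.

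GRB7 rose the most. Its level in the 3 untreated libraries at 24 h was 1814, 1447 and 823 CPM and after afatinib 5125, 4148 and 3908, with no overlap (log2FC 1.66 ± 0.23, edgeR's quasi-likelihood test, adjusted p = 2.17e-06). GSDMB went from 50.8, 41.3 and 28.1 CPM to 141, 125 and 87, again with no overlap (1.52 ± 0.24, adjusted p = 8.54e-06). For both genes replicate 3 was the lowest in either group. PPP1R1B stood at 37.2, 24.5 and 25.7 CPM in untreated and at 75.6, 58.5 and 65.6 in treated libraries (1.16 ± 0.18). PGAP3 stood at 414, 365 and 399 CPM without and at 711, 627 and 696 with afatinib (0.75 ± 0.10, adjusted p = 9.47e-07), and MIEN1 at 11.6, 8.72 and 10.8 without and 20.9, 16.8 and 23.7 with it (0.95 ± 0.22). ERBB2 itself rose from 14565, 15050 and 12953 CPM to 22093, 21664 and 20907 (0.57 ± 0.13, adjusted p = 0.000657), a smaller log2FC than that of these 5 members, a difference that was not tested. The exons of MIEN1 and PGAP3 overlap those of ERBB2. The part of this overlap in their rises, here and in MKN7 cells, was not tested. ORMDL3 rose by a log2FC of 0.30 ± 0.09 from 133, 127 and 121 to 152, 152 and 178 CPM, and without replicate 3 its value of 0.20 did not pass.

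CDK12 fell from 1683, 1872 and 2007 CPM to 1037, 1155 and 1141 (log2FC -0.77 ± 0.09, adjusted p = 2.05e-07), and every treated library lay below every untreated one. MED1 fell from 937, 944 and 1001 CPM to 684, 727 and 720 (-0.47 ± 0.08, adjusted p = 1.33e-05). STARD3 fell from 1551, 1415 and 1330 CPM to 1209, 1140 and 1153 (-0.33 ± 0.09, adjusted p = 0.0024). Its value was -0.07 when libraries were scaled by library size alone and -0.30 without replicate 2, and neither passed. TCAP had a log2FC of 0.39 (adjusted p = 0.0608), which passed with the replicate number as a block (adjusted p = 0.00197) and in 5 other alternatives, with values up to 0.66.

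**Figure D3:**
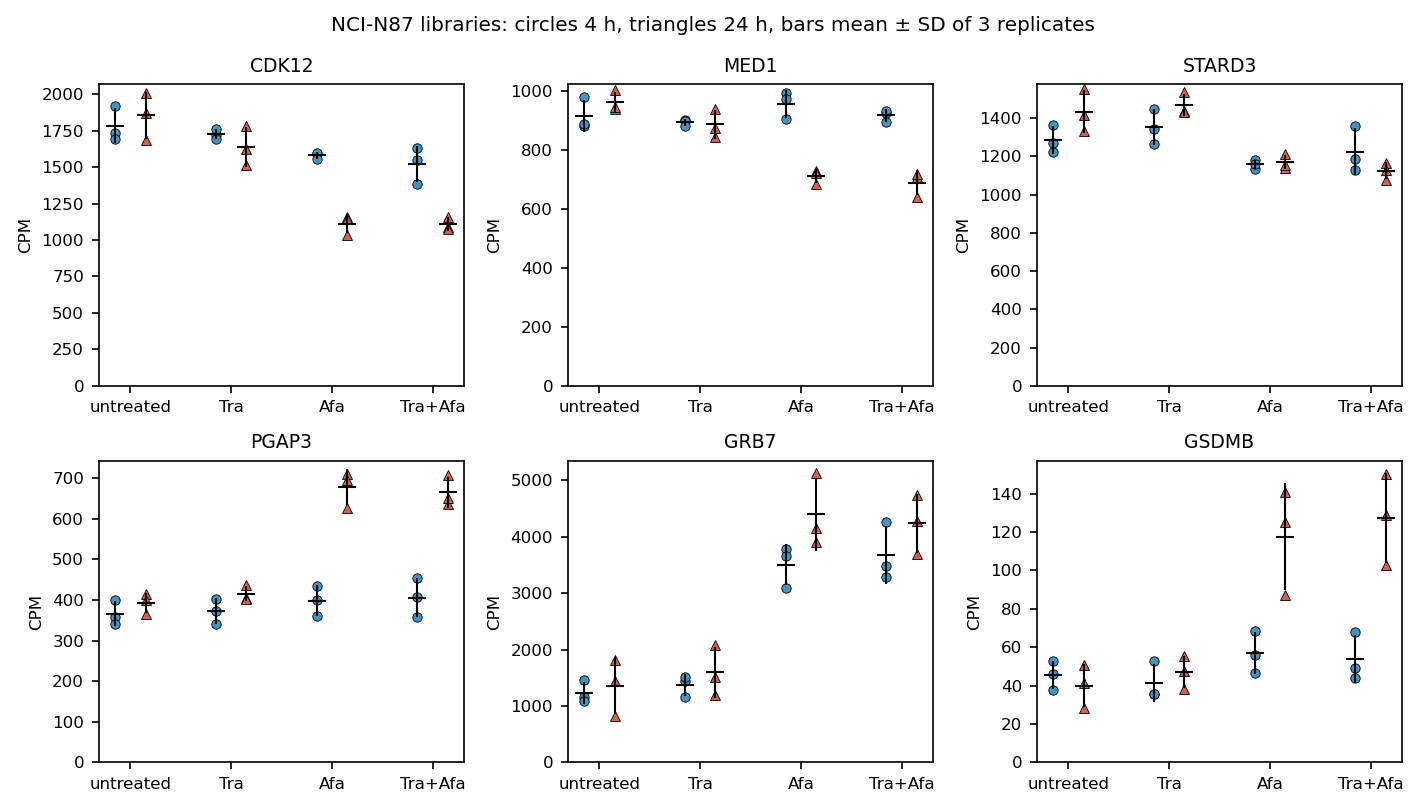
Level (CPM, linear axis from 0) of 6 members in each NCI-N87 library under the 4 treatments, with circles for 4 h, triangles for 24 h and bars at the mean ± SD of 3 replicates. CDK12, MED1 and STARD3 are lower and PGAP3, GRB7 and GSDMB higher in all 3 libraries after 24 h afatinib, alone or with trastuzumab, and GRB7 is higher already after 4 h.

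In MKN7 cells after 24 h afatinib treatment 4 members rose and 2 fell, where 51.6% of all genes passed, 26.6% as higher and 25% as lower. The 6 of 10 members thus lie near that share. PGAP3 rose the most, from 246, 265 and 208 CPM to 477, 533 and 495 (log2FC 1.06 ± 0.10, edgeR's quasi-likelihood test, adjusted p = 3.13e-08). MIEN1 rose by a log2FC of 0.98 ± 0.20, PPP1R1B by 0.91 ± 0.19 and GSDMB by 0.88 ± 0.15, beside 0.59 ± 0.11 for ERBB2. GSDMB did so from a low level, 5.14, 6.26 and 4.32 CPM in untreated and 9.64, 10.4 and 9.06 in treated cells. CDK12 (-0.28 ± 0.08) and MED1 (-0.25 ± 0.07) fell, and neither passed when libraries were scaled by library size alone (-0.17 and -0.14, with the median of all genes at 0.16 in place of 0.04). Under that scaling 33.2% of all genes were higher and 18.4% lower, with 6 members higher and 0 lower. Without replicate 1 the value of CDK12 did not pass. TCAP had a value of 0.33 (adjusted p = 0.0573, with the replicate block 0.0244). GRB7, at 266, 177 and 278 CPM in untreated and 328, 239 and 278 in treated libraries, had a log2FC of 0.22 that did not pass (adjusted p = 0.248).

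GRB7 passed already at 4 h in NCI-N87 and MKN7. After 4 h afatinib treatment it stood at 3779, 3651 and 3087 CPM in NCI-N87 against 1153, 1461 and 1087 in untreated cells (log2FC 1.51 ± 0.23, adjusted p = 5.74e-05), the only member to pass, where 18.2% of all genes did. With the replicate block 3 members passed, PPP1R1B and MIEN1 being the others. Here and below the shares of all genes are from the fit without the block, and those with the block are not given. In MKN7 cells GRB7 stood at 313, 298 and 312 CPM against 174, 159 and 170 after 4 h (0.84 ± 0.16, adjusted p = 0.000513). ORMDL3 also passed there (0.22, adjusted p = 0.0496), where 22.2% of all genes did, so that the 2 of 10 members lie near that share. The call of ORMDL3 was lost without replicate 1, without replicate 3, without a filter, with scaling without the locus genes and in a fit of the compared groups alone. With the block 4 members passed, CDK12 and STARD3 as lower. Untreated MKN7 cells held 240 ± 55.2 CPM of GRB7 at 24 h and 168 ± 7.95 at 4 h (mean ± SD, n = 3).

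Trastuzumab + afatinib was compared with the same untreated libraries as afatinib alone, and its values are set beside them for that reason only. In NCI-N87 cells at 24 h the log2FC was 1.60 for GRB7, 1.63 for GSDMB, 1.02 for PPP1R1B, 0.72 for PGAP3, 0.93 for MIEN1, 0.22 for ORMDL3, -0.78 for CDK12, -0.52 for MED1 and -0.39 for STARD3 (64.7% of all genes passed). In MKN7 cells at 24 h PGAP3 had 1.10, MIEN1 0.96, PPP1R1B 0.90, GSDMB 0.86, MED1 -0.27 and CDK12 -0.31 (51.9%). At 4 h, GRB7 had 1.58 in NCI-N87, where PPP1R1B (0.57) and MIEN1 (0.69) passed as well (17.3%, 5 members with the replicate block, 1 without replicate 1 or without replicate 2). In MKN7 cells GRB7 had 0.91 and ORMDL3 0.28 at 4 h (23.4%, 6 members with the block). Set directly against afatinib alone at 24 h, the combination changed 0 members in NCI-N87, MKN7 and MKN1 cells (0% of all genes in each, 0 members at an unadjusted p below 0.05 in edgeR's test and 0 in DESeq2), with a log2FC of the members between -0.19 and 0.12.

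**Figure D4:**
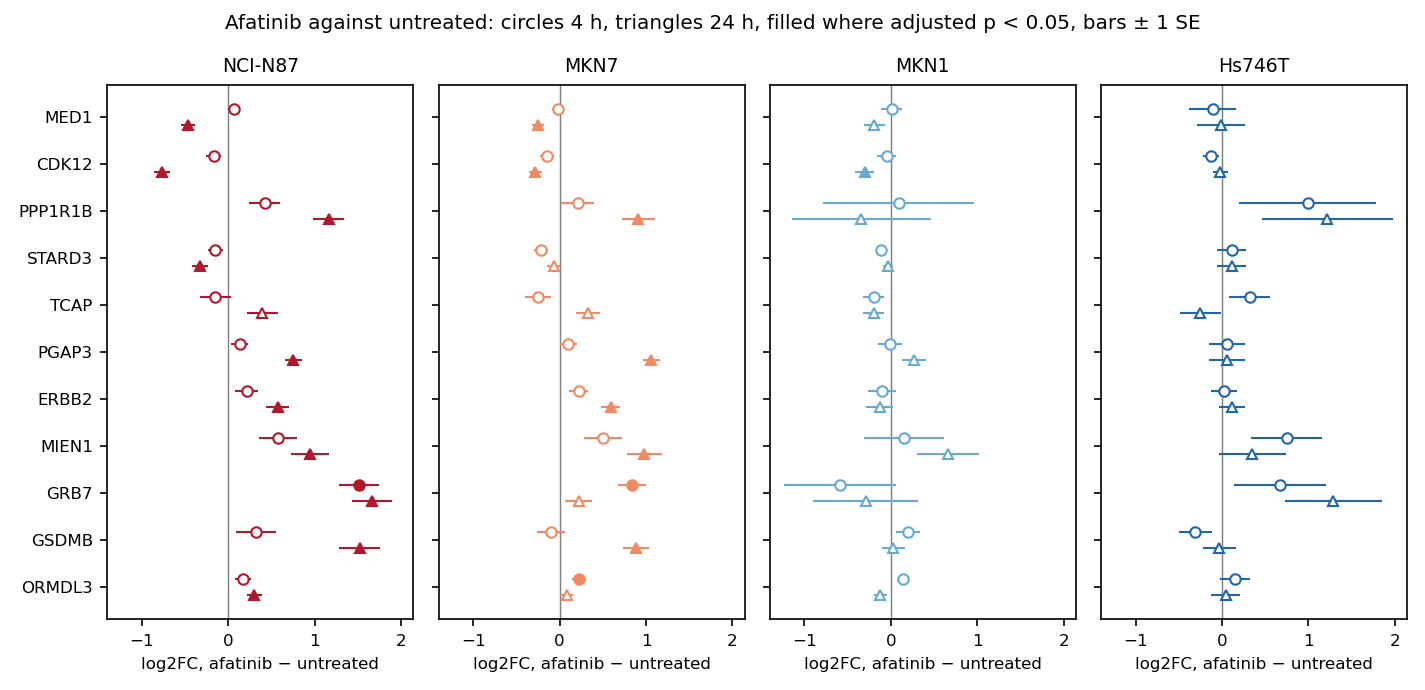
log2FC of afatinib against untreated cells (x axis) for the members and ERBB2 in the 4 cell lines, with circles for 4 h, triangles for 24 h, bars of 1 SE, and filled symbols where the adjusted p is below 0.05. The filled symbols of members lie in NCI-N87 (1 member at 4 h, 9 at 24 h) and MKN7 (2 and 6), with 1 in MKN1 and none in Hs746T.

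In MKN1 cells afatinib changed 1 member at 24 h, CDK12 (log2FC -0.30 ± 0.11, adjusted p = 0.033), where 25.6% of all genes passed. Its libraries overlapped (155, 126 and 164 CPM untreated, 136, 112 and 118 treated), and the call was lost without replicate 1 or 3, without a filter, with scaling by library size and in a fit of the compared groups alone. With the replicate block MED1 (-0.19) and PGAP3 (0.27) passed as well, which made 3. Trastuzumab + afatinib changed 0 members of MKN1 cells at 24 h (26.8% of all genes, 4 members at an unadjusted p below 0.05, 0 in DESeq2). With the block 5 passed, PGAP3 (0.23) as higher and CDK12, STARD3, TCAP and ORMDL3 as lower. The 26.8% is from the fit without the block, and the share with the block is not given here. At 4 h both treatments changed 0 members in MKN1 cells (3.68% and 3.95% of all genes, 0 members at an unadjusted p below 0.05 and 0 in DESeq2).

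The effect of afatinib at 24 h was compared between lines by the difference of the log2FC in one fit of all libraries. GSDMB differed between NCI-N87 and MKN1 by 1.50 ± 0.26 (adjusted p = 1.37e-06) and GRB7 by 1.96 ± 0.63 (adjusted p = 0.0125), with TCAP, ORMDL3 and CDK12 as further members that passed (28% of all genes). With the replicate block 8 members passed and without replicate 3 only 2. Between MKN7 and MKN1 PGAP3 (0.78 ± 0.22) and GSDMB (0.84 ± 0.26) passed (7.61%), with 1 member left without replicate 1 and 0 without replicate 2 or 3. Between NCI-N87 and Hs746T the 5 members CDK12, STARD3, TCAP, PGAP3 and GSDMB passed (35.1%, 3 members without replicate 2 or 3), and between MKN7 and Hs746T PGAP3 and GSDMB (18.8%, 6 members with the block, 0 without replicate 3). The 2 lines with high levels differed by the test in CDK12, which fell further in NCI-N87 than in MKN7 (difference -0.46 ± 0.14, adjusted p = 0.00705, 21.4% of all genes). It was lost without replicate 3 (-0.31), with scaling by library size alone (-0.34) and in a fit of the compared groups alone (-0.38). The difference in GRB7 was 1.46 with an adjusted p of 0.0787, and 6 members passed with the block, GRB7 (adjusted p = 0.000255) and GSDMB (0.00142) among them. Between Hs746T and MKN1 0 members passed (4.41%, 2 at an unadjusted p below 0.05, 0 in DESeq2, 2 with the block). The afatinib effect on TCAP at 24 h did not pass in any of the 4 lines on its own, but with the replicate block it passed in NCI-N87 (log2FC 0.38, adjusted p = 0.00197) and MKN7 (0.33, adjusted p = 0.0244).

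EGF treatment for 24 h lowered 3 members and raised 1 in MKN1 cells. PGAP3 fell from 22, 20.1 and 24.5 CPM to 13.5, 13.9 and 15.6 (log2FC -0.61 ± 0.14, edgeR's quasi-likelihood test, adjusted p = 0.000876). GSDMB fell from 13.2, 10.9 and 11.5 CPM to 8.53, 5.14 and 9.03 (-0.63 ± 0.14, adjusted p = 0.000506), and TCAP from 5.72, 5.91 and 5.18 to 3.92, 4.19 and 4.9 (-0.35 ± 0.12). ERBB2 fell with them (-0.53 ± 0.16). CDK12 rose from 155, 126 and 164 to 194, 168 and 179 CPM (0.30 ± 0.11, adjusted p = 0.0269). Of all genes 35.8% passed, 17.3% as higher and 18.5% as lower, so that the 4 of 10 members lie near that share. The median log2FC was -0.48 for the members and -0.05 for all genes.

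GRB7 went from 9.61, 10.8 and 11.6 CPM to 2.66, 4.87 and 3.9 under EGF, with no overlap, a log2FC of -1.47 ± 0.64 and an adjusted p of 0.0736. The replicate block brought GRB7 (adjusted p = 0.00796) and MIEN1 (log2FC -0.93, adjusted p = 0.0418) past the threshold. In the 4 h libraries of the same fit, replicate 2 of GRB7 stood at 12.5 CPM untreated, 14.6 after EGF and 21.9 after EGF + cetuximab, and replicates 1 and 3 between 1.37 and 5.15. Scaled by library size alone, CDK12 no longer passed (0.11) and 0 members were higher and 6 lower, with the median of all genes at -0.24 and 8.19% of them higher and 31.6% lower. CDK12 also lost its call without any 1 of the replicates (0.24 to 0.38) and TCAP without replicate 1 (-0.27) or 2 (-0.29) or without a filter on low counts (-0.34). Both lost it in a fit of the compared groups alone (0.30 and -0.35). Without replicate 1 this left PGAP3 and GSDMB.

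EGF + cetuximab for 24 h left 1 member changed in MKN1 cells, PGAP3 (log2FC -0.42 ± 0.14, adjusted p = 0.0318, 18.6% of all genes), and 5 with the block. It was lost without replicate 1 or without replicate 2. Cetuximab alone changed 0 members at 24 h (10.8% of all genes, 0 members at an unadjusted p below 0.05 and 0 in DESeq2), with PGAP3 at 0.24 passing with the block. At 4 h 0 members changed under EGF (6.82%), cetuximab (1.43%) or EGF + cetuximab (0.717%), with 0 members at an unadjusted p below 0.05 and 0 in DESeq2 in each.

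Trastuzumab changed 0 members in 80 tests over the 4 lines and both time points (0% of all genes in every one of the 8 comparisons, 2 member tests at an unadjusted p below 0.05 in edgeR's test, 0 in DESeq2). The 2 were PGAP3 in MKN7 (24 h) and CDK12 in NCI-N87 cells (24 h, log2FC -0.19 ± 0.09). In NCI-N87 cells after 24 h GRB7 stood at 2080, 1516 and 1187 CPM against 1814, 1447 and 823 in untreated cells. These libraries overlapped, and the members' log2FC lay between -0.19 and 0.22.

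In Hs746T cells 0 of 120 member tests over 12 comparisons passed (0% of all genes in each, 5 member tests at an unadjusted p below 0.05, 0 in DESeq2, 0 with the block). Among the 5 was GRB7 after 24 h afatinib, at 4.75, 2.24 and 2.28 CPM against 0.564, 0.766 and 2.38 in untreated cells. These libraries overlapped. The largest value was a log2FC of 2.62 for PPP1R1B after 4 h EGF + cetuximab, and it goes with a single library. In replicate 1 of that condition PPP1R1B stood at 1.06 CPM (54 counts), against at most 0.325 in the other 41 Hs746T libraries. PGAP3 (10.5 CPM, others 4.18 to 7.25), GRB7 (4.88, others up to 4.75), ERBB2 (160, others 75.1 to 107), CDH1 (6.01, others up to 2.14) and IKZF3 (3.92, others up to 1.69) were also highest there. EPCAM (28.3 CPM, with 28 of the other 41 libraries at or above it), KRT8 (328, 30 at or above), STARD3 (61.7, 38 at or above) and CACNB1 (9.29, 13 at or above) were not. Their part in that value was not tested. Without replicate 1 of each condition, PPP1R1B did not reach the filter on low counts. Over all 36 comparisons of a treatment with untreated cells 44 of 360 member tests passed, 46 in DESeq2 and 72 with the replicate block. In 25 comparisons 0 members passed. The share of all genes that passed without the block ranged from 0% to 64.7% over these comparisons. It is not given for the 36 pooled or with the block, so that these totals are not to be read as a result about the members.

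**Figure D5:**
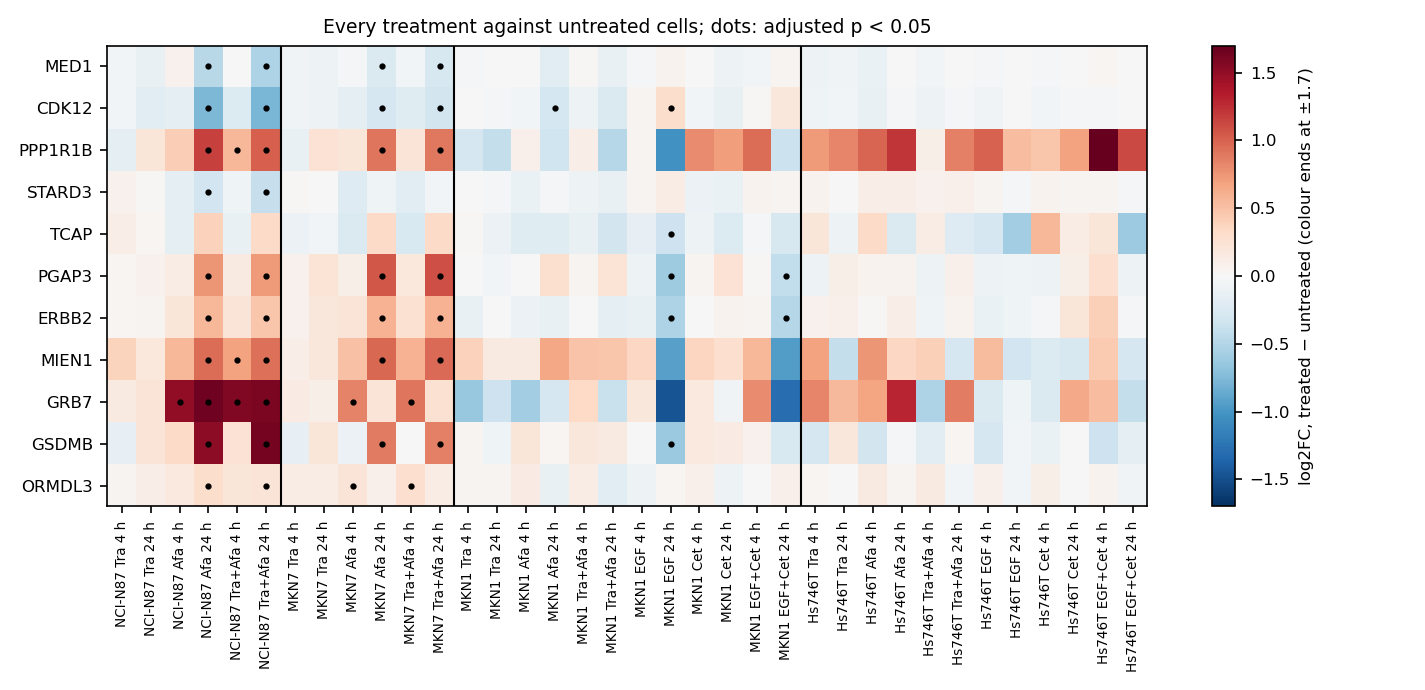
log2FC (colour, red higher and blue lower, ending at ±1.7) of each member and ERBB2 (rows) in all 36 comparisons of a treatment with untreated cells (columns, grouped by cell line), with dots where the adjusted p is below 0.05. Dots stand in the afatinib columns of NCI-N87 and MKN7 and in a few MKN1 columns, and none in a column of trastuzumab alone or of Hs746T.

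Untreated cells also differed between 4 h and 24 h of culture. In MKN7 cells MIEN1 (log2FC 0.64) and GRB7 (0.49) were higher and MED1 (-0.22) and CDK12 (-0.29) lower at 24 h, where 16.4% of all genes passed. DESeq2 called 6 members. With the replicate block 6 passed as well, TCAP (log2FC 0.39, adjusted p = 0.0251) and GSDMB (0.43, adjusted p = 0.00923) being added. The number without the block fell to 0 without replicate 1, to 2 without replicate 2, to 1 without replicate 3 and to 0 in a fit of these groups alone. Scaled by library size alone, 4 members were higher and 0 lower. In MKN1 cells CDK12 was lower (-0.34 ± 0.11) and MIEN1 higher (1.08 ± 0.43) at 24 h (34.1%), with 0 left without replicate 1 or without replicate 3. In NCI-N87 cells 0 members passed (0.267%, 1 at an unadjusted p below 0.05 and 0 in DESeq2), and PPP1R1B (0.46) passed with the block. In Hs746T cells 0 passed (1.48%, 0 at an unadjusted p below 0.05 and 0 in DESeq2).

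Within a line, the members divided by how their mean log2 CPM ran with that of ERBB2 over the conditions (8 in NCI-N87 and MKN7, 14 in MKN1), given as a description because the conditions share a line and its replicates. In NCI-N87 cells Pearson's r with ERBB2 was 0.99 for PPP1R1B, 0.97 for PGAP3, 0.94 for ORMDL3, 0.91 for GSDMB, 0.88 for TCAP, 0.82 for MIEN1 and 0.69 for GRB7. It was -0.91 for CDK12, -0.88 for MED1 and -0.48 for STARD3. In MKN7 cells the signs were the same for every member, with 0.30 for ORMDL3, 0.58 for GRB7 and -0.97 for CDK12. In MKN1 cells GRB7 (0.89), MIEN1 (0.86) and PGAP3 (0.75) ran with ERBB2 and CDK12 (-0.80), ORMDL3 (-0.52), STARD3 (-0.45) and MED1 (-0.43) against it. In Hs746T cells (14 conditions) the values lay between -0.48 for ORMDL3 and 0.59 for PPP1R1B. Those of MIEN1 and, less so, of PGAP3 are uncertain in all lines, since their exons overlap those of ERBB2 on the opposite strand. The part of this overlap in their r was not tested.

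The flanking genes and the known partners of the members included genes that rose and genes that fell. After 24 h afatinib treatment of NCI-N87 cells 9 of 33 flanking genes rose and 15 fell, where 31.5% of all genes rose and 31% fell. TNS4 (-4.02), CDC6 (-3.04) and GSDMA (-2.62) fell and LRRC3C (3.84), NEUROD2 (2.91) and IKZF3 (1.62) rose the most. LRRC3C held only 1, 1 and 0 counts in the untreated libraries and 13, 10 and 16 after afatinib, so that its log2FC rests in part on the prior count of the fit. In MKN7 cells 5 of 30 flanking genes rose and 10 fell (26.6% and 25% of all genes). Of 48 tested partners and paralogs in NCI-N87 cells 9 rose and 26 fell, with a median log2FC of -0.28. Among the 27 tested Mediator genes other than MED1, 7 rose, CDK19 (1.18) the most, and 13 fell. The paralogs of GRB7, GRB10 (-1.52) and GRB14 (-1.42), fell while GRB7 rose, and GSDMC (-3.41) fell while GSDMB rose. Of the PPP1R1B target, the catalytic subunits of protein phosphatase 1, 3 of 3 fell, and of STARD3NL, VAPA, VAPB, NPC1 and NPC2, the listed partners of STARD3, 4 of 5 fell. In MKN7 cells 5 partners rose and 18 fell, GSDME (1.17) rising the most, and in MKN1 cells under EGF for 24 h 15 of 47 rose and 3 fell. There 35.8% of all genes passed, 17.3% higher and 18.5% lower. The 18 partners lie near the share for both directions together, but a larger part of them rose and a smaller part fell than among all genes. This split was not tested.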

How the data were processed

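RNA of 132 libraries of 4 cell lines was sequenced as directional poly(A) libraries. The deposited files hold raw counts per gene that the authors made for each library. The submitters' processing notes name Trim Galore, STAR and hg38, and the counter and its strand setting are not given in the sources used here. Gene names and positions came from GENCODE 29 (8404 identifiers without a match held 0.0422% of all counts) and promoter sequences from RefSeq. Treatments were compared within each line, and lines in a fit of all libraries, with edgeR 4.0.16 (R 4.3.3): TMM scaling, filterByExpr (minimum count 10, minimum total 15), quasi-likelihood F test and Benjamini-Hochberg adjustment over all genes tested, as log2FC ± SE. Log2 CPM used a prior count of 2. Tables and plots were made with Python 3.11.15, pandas 2.3.3 and matplotlib 3.10.9. The fits were tested on simulated data.

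All 10 members were tested in every comparison, and the text names mainly those that passed. ERBB2 is given in part of the comparisons as the reference. Other lists are given by counts and, in part, by their 3 largest rises and falls that passed. Members and lists were chosen with earlier results of these data known. Same-numbered replicates deviated together in all 36 treatment comparisons (every pair correlation over 0.1) and in 0 of 6 line comparisons. The reported fits hold no replicate term. The replicate block, an alternative that holds one, added calls and ended none. The labels do not say that replicates are separate cultures, so p-values measure the spread between libraries, which may be technical. Alternatives were a replicate block, DESeq2 1.42.0, library size alone, scaling without the locus genes, no filter, a minimum of 10 counts in each library, the compared groups only, leaving out each replicate, and for lines the sample number series or 1 time point.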

Additional observations from a re-analysis of the deposited data

Results flagged for a closer look

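The effect of afatinib at 24 h differed between lines by the test of the difference itself (edgeR's quasi-likelihood test, Benjamini-Hochberg adjusted p, 3 replicates a group) for 15 pairs of a member and a line comparison. All 10 members were tested in each comparison. Of all genes, 28% passed between NCI-N87 and MKN1, 35.1% between NCI-N87 and Hs746T, and 7.61% between MKN7 and MKN1. The share was 18.8% between MKN7 and Hs746T, where 2 members lie near it, and 21.4% between NCI-N87 and MKN7, where 1 member lies below it. Between Hs746T and MKN1 it was 4.41%, with 0 members. Between NCI-N87 and MKN1 the differences in log2FC were 1.96 for GRB7 (adjusted p = 0.0125), 1.50 for GSDMB (1.37e-06), 0.61 for TCAP (0.0214), 0.44 for ORMDL3 (0.03) and -0.45 for CDK12 (0.00721). Between NCI-N87 and Hs746T they were 1.58 for GSDMB (adjusted p = 4.8e-07), 0.73 for PGAP3 (0.00689), 0.70 for TCAP (0.0359), -0.42 for STARD3 (0.0243) and -0.73 for CDK12 (6.15e-06). For MKN7 the difference from MKN1 was 0.78 for PGAP3 (adjusted p = 0.0116) and 0.84 for GSDMB (0.0317), and that from Hs746T was 1.01 for PGAP3 (0.00044) and 0.92 for GSDMB (0.00899). Between NCI-N87 and MKN7 CDK12 differed by -0.46 (adjusted p = 0.00705). Of the 15 calls, those of GSDMB between NCI-N87 and MKN1 or Hs746T and of CDK12 between NCI-N87 and Hs746T held in all 10 alternatives. The other 12 were lost in at least 1, STARD3 in 8 of 10, and GSDMB between MKN7 and MKN1 in 5. These comparisons share the libraries of each line.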

How the results depend on the processing

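Under the alternatives 493 counts of members stayed within 1.5 times the reported count and 63 did not. Single members stayed on their side of the threshold in 5309 cases, in 174 of which a value that passed in neither had the opposite sign, among them GSDMB between MKN7 and Hs746T at 24 h alone (0.03 against -0.24). They gained a call in 114 and lost it in 104. In 1 case a value that passed under the alternative had turned, ORMDL3 in MKN1 under EGF at 24 h (-0.17 with library size alone, 0.03 as reported). The cause was not tested. With the replicate block, members passing were 3 for NCI-N87 and 4 for MKN7 under afatinib at 4 h, 5 and 6 under trastuzumab + afatinib at 4 h, 3 and 5 for MKN1 under these treatments at 24 h, 1 under cetuximab and 5 under EGF + cetuximab at 24 h, and 1 for NCI-N87 over time. For the differences of the afatinib effect the block gave 8 (NCI-N87 and MKN1), 6 (MKN7 and Hs746T), 6 (NCI-N87 and MKN7) and 2 (Hs746T and MKN1). The block ended no call, and changed no other count by over 1.5 times. The share of all genes that passed with the block is not given here, so that these counts have no background beside them. Library size alone gave 3 for NCI-N87 under afatinib at 4 h, 1 for MKN1 under either afatinib treatment at 4 h, 0 under afatinib at 24 h, 2 under EGF + cetuximab at 24 h, 1 over time, and 1 between MKN7 and MKN1. With no filter the counts were 1 for MKN7 under afatinib at 4 h, 0 for MKN1 at 24 h, 1 for MKN1 over time, 1 between MKN7 and MKN1 and 3 between NCI-N87 and Hs746T. The compared groups only gave 1 in MKN7 under afatinib and in NCI-N87 under the combination at 4 h, 0 and 2 in MKN1 under afatinib and EGF + cetuximab at 24 h, 0 in MKN7 over time, and 3, 1 and 2 for NCI-N87 against Hs746T, MKN7 against Hs746T and NCI-N87 against MKN7. Scaling without the locus genes gave 1 in MKN7 under afatinib at 4 h and 2 between NCI-N87 and MKN7, where DESeq2 gave 2. At least 10 counts in every library gave 4 there and 1 in MKN1 over time. Leaving out 1 replicate gave 0 to 1 for MKN1 under afatinib, the combination and EGF + cetuximab at 24 h, 2 to 3 under EGF, 0 to 2 for MKN1 and MKN7 over time, 1 to 2 for NCI-N87 and MKN7 under either afatinib treatment at 4 h, and 0 to 2 (MKN7 and Hs746T), 0 to 1 (MKN7 and MKN1, NCI-N87 and MKN7), 3 to 5 (NCI-N87 and Hs746T) and 2 to 4 (NCI-N87 and MKN1) between lines. Depth limits PPP1R1B and MIEN1 in MKN1 and Hs746T cells, where libraries held few counts.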

Other observations

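Over the 44 conditions, the genes whose mean log2 CPM ran most like the average of the 10 members were C6orf132, RBBP8NL, ERBB2, SH3YL1, BICDL2, KIAA1671, CDS1, TMC4, TTLL10 and TUG1, each with Pearson's r of 0.99. The conditions fall into 4 lines, so that this likeness is mostly that of the differences between lines. Under EGF at 24 h in MKN1 cells the flanking genes TNS4 (log2FC 2.49), IGFBP4 (1.47) and CCR7 (1.40) rose, and PNMT (-1.03), STAC2 (-0.82) and FBXL20 (-0.54) fell. Under afatinib at 24 h TNS4 fell in NCI-N87 (-4.02), MKN7 (-4.19) and MKN1 cells (-2.66).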
